A study of Mus musculus with 82 samples.

Results

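This report describes bulk RNA-seq of mouse sciatic nerve from animals labelled Ndrg1 against animals labelled control, across all genes. The 11 libraries compared, 5 labelled Ndrg1 and 6 labelled control, were taken from the 82 libraries of the series by their genotype label, with no use of measured values. Both groups were whole sciatic nerve, frozen and lysed in the same way. The labels give the genotype only as Ndrg1 or control: no allele, driver, age, sex or pooling of animals is stated, nor whether the controls carry an allele of their own. The labels also do not say that replicates came from separate animals, so the spread behind each p-value is that between these libraries and may be technical. The same table holds 6 libraries labelled Mitf and 5 labelled MitfNdrg1, which entered the same fit.

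Ndrg1 (N-myc downstream regulated 1) encodes a cytoplasmic protein that is abundant in myelinating Schwann cells, the glia that wrap axons of peripheral nerve. Loss-of-function variants of the human gene cause a recessive demyelinating form of Charcot-Marie-Tooth disease, and in human cell lines the protein has been linked to the recycling of membrane proteins through endosomes. After nerve injury or loss of myelin, Schwann cells are known to switch off myelin and lipid synthesis genes, to switch on a repair program that includes growth factors and cytokines, to divide, and to recruit macrophages that clear myelin.

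Library totals ran from 16110000 to 24520000 estimated counts in the Ndrg1 group and from 21640000 to 29370000 in the control group. Mitochondrially encoded genes took 10.1% to 26.1% of the counts in Ndrg1 libraries and 3.04% to 4.2% in control libraries. Each Ndrg1 library was set against the mean level of the others in its group. By this measure 48 to 110 genes lay more than 1 log2 unit away in Ndrg1 libraries 1, 2, 4 and 5. Ndrg1 library 3 stood apart, with 203 such genes and the highest mitochondrial share. Without this library, all 24 cholesterol synthesis genes stayed lower, cell cycle genes counted 31 higher and 1 lower, macrophage markers 18 higher and 1 lower, chemokines 18 higher and 2 lower, matrix genes 8 higher and 18 lower, and endothelial markers 12 lower. Levels are given as CPM, counts scaled to a common library total. Libraries with both Xist and Ddx3y above 1 CPM numbered 4 of 5 in the Ndrg1 group and 1 of 6 in the control group; the labels give no sex. Schwann cell lineage markers (Sox10, S100b and others) were detected in every library, and the defining markers of the labelled tissue were therefore present. In whole nerve, fewer cells of a type and less RNA per cell cannot be told apart. A principal component holding 60.6% of the variance over all 22 libraries of the table separated the Ndrg1 and MitfNdrg1 libraries from the control and Mitf libraries.

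The targeted gene was checked first. Ndrg1 (GENCODE ENSMUSG00000005125.13, mm10 chr15:66929318-66969640, minus strand) had 171, 188, 187, 191 and 167 CPM in Ndrg1 libraries 1 to 5, against 1806 (lowest), 1989 (median) and 2052 CPM (highest) in the control libraries. The groups were far apart, and the Ndrg1 mean was 9.2% of the control mean, with a log2 change of -3.44 ± 0.09 (SE, adjusted p = 3.57e-19). Its paralog Ndrg3 had a log2 change of -0.28 ± 0.06 (SE, adjusted p = 0.000701), while Ndrg2 (-0.08) and Ndrg4 (0.24) did not pass the test. Ndrg4 did pass, higher, with the 2 groups alone, without control library 6, with mitochondrial genes left out, and without both Ndrg1 library 3 and mitochondrial genes. The list of regulators and partners of NDRG1 counted 3 higher and 7 lower of 15. In it the cadherin Cdh1 had a change of -1.70 ± 0.16 (SE, adjusted p = 2.81e-09) and the oxygen sensor Egln1 of -0.70.

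Across the transcriptome, 9626 of 15910 genes tested (60.5%) passed an adjusted p of 0.05 in edgeR's quasi-likelihood test, 4896 higher (30.8%) and 4730 lower (29.7%) in Ndrg1 nerve. Of these, 1918 (12.1%) were higher and 1246 (7.83%) lower by at least 1 log2 unit. The median log2 change over all genes tested was 0.02. Without Ndrg1 library 3 the test called 4919 genes higher and 4866 lower. Because 60.5% of all genes passed, a share of a gene list near 30.8% higher or 29.7% lower is not a result about that list. For every gene whose 5 Ndrg1 values are given below beside the lowest, median and highest control value, all 5 Ndrg1 libraries lay on the same side of all 6 control libraries. Genes with the highest levels among those changed by at least 1 log2 unit were mt-Co1 (2.09), mt-Cytb (1.93), mt-Nd1 (2.09), mt-Nd4 (1.85) and Apod (1.64) on the higher side, and Pmp22, Mbp, Prx and Scd2 on the lower side.

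**Figure D1:**
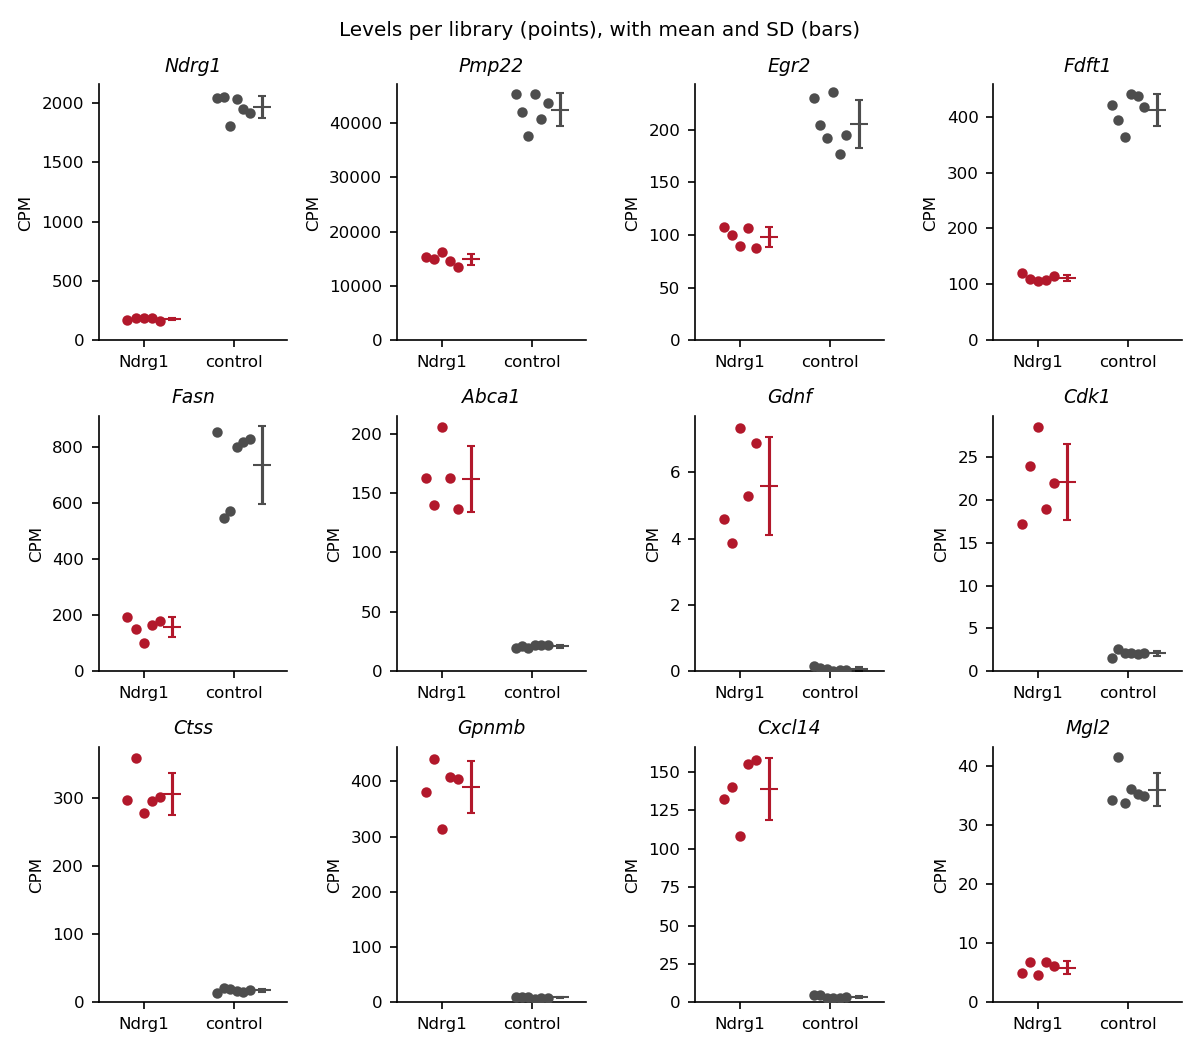
Level of 12 genes in each library, in CPM (y axis from 0), for 5 Ndrg1 libraries (red, left) and 6 control libraries (grey, right), with the mean and SD beside the points. In each of the 12 genes the 2 groups do not overlap, which held for 20.6% of all genes on the higher side and 21.2% on the lower side: Ndrg1, Pmp22, Egr2, Fdft1, Fasn and Mgl2 are lower in Ndrg1 nerve, and Abca1, Gdnf, Cdk1, Ctss, Gpnmb and Cxcl14 are higher.

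The genes of cholesterol synthesis fell together. All 24 members of the list of cholesterol synthesis and SREBP2 target genes were lower in Ndrg1 nerve, 23 of them by at least 1 log2 unit, with a median of -1.88 against 0.02 over all genes, and in all 24 the libraries of the groups did not overlap, which held for 21.2% of all genes in this direction. SREBP2, encoded by Srebf2, is the transcription factor that switches on this pathway when sterols run low, and it acts on a sterol response element (SRE) together with NF-Y, which binds the CCAAT box. Promoters of members with these letters are shown because the list moved as a group; they run from 250 bases before to 50 bases after the start, from RefSeq on GRCm38.p6, 5′ to 3′ on the gene's strand (Hmgcs1 chr13:119690101-119690400, plus strand; Insig1 chr5:28071162-28071461, plus strand). Capitals mark the SRE letters TCACNCCAC and the CCAAT box in either orientation, which do not overlap each other here.
Hmgcs1: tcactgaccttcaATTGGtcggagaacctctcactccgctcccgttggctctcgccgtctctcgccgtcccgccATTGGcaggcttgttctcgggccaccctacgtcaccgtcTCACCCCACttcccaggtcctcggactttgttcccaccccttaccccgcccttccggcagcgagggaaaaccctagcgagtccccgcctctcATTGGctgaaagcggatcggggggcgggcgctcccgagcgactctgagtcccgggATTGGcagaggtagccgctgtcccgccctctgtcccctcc
Insig1: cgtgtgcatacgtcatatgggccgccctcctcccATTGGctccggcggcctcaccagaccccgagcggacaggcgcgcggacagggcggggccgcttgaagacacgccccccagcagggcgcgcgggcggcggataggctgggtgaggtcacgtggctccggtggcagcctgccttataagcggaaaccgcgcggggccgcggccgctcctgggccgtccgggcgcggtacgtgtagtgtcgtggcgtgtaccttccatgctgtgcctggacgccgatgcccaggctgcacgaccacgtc
Of 18 list members with a promoter in that table, 16 (88.9%) held CCAAT on either strand, against 41.1% of 27025 genes, and 1 (5.56%) held TCACNCCAC, against 1.44%. The match is one of letters only. The Hmgcs1 window held 1 SRE match and 4 CCAAT matches, and the Insig1 window held 1 CCAAT match.

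Hmgcs1, which makes the HMG-CoA from which the pathway starts, had 1266, 1023, 1219.7, 1005 and 768 CPM in Ndrg1 libraries 1 to 5, against 3119.7 (lowest), 3686 (median) and 3939.5 CPM (highest) in the control libraries. All 5 Ndrg1 libraries lay below all 6 control libraries, and the log2 change was -1.78 ± 0.12 (SE, adjusted p = 5.9e-12). Fdft1, the squalene synthase at the branch into sterols, had 120.0, 109, 106, 108 and 115 CPM in Ndrg1 libraries 1 to 5, against 364 (lowest), 419 (median) and 441 CPM (highest) in the control libraries. On the log2 scale the change was -1.88 ± 0.09 (SE, adjusted p = 3.17e-14). Ebp, a sterol isomerase, changed least in the list, by -0.81 ± 0.08 (SE, adjusted p = 3.2e-09). The regulators were also lower: Srebf2 had a log2 change of -1.99, its escort Scap of -1.37 and its retention factor Insig1 of -2.08 ± 0.11 (SE, adjusted p = 1.04e-13). Acat2, which makes the acetoacetyl-CoA used by the pathway, ranked in the top 10 by p of the genes that fell, at -2.03 ± 0.10 (SE, adjusted p = 1.81e-14).

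Genes of lipoprotein uptake and endosomal recycling were divided. Mylip, a ubiquitin ligase that is a target of the sterol sensor LXR, was higher in Ndrg1 nerve. It had 75.4 ± 4.04 CPM in Ndrg1 libraries (SD, n = 5) and 48.8 ± 1.55 CPM in control libraries (SD, n = 6). The log2 change was 0.63 ± 0.06 (SE, adjusted p = 1.74e-09). Vldlr, the very low density lipoprotein receptor, was lower, with a log2 change of -0.77 ± 0.09 (SE, adjusted p = 4.58e-08). Of the 20 genes listed for lipoprotein receptors and endosomal recycling, 4 were higher and 11 lower, with a median of -0.20. Of the recycling genes among these, Ehd3 changed by -1.35 and Snx27 by -0.71. Rab4a, whose product binds NDRG1 in human cells, changed by -0.59. It was listed with the regulators and partners of NDRG1 and is not in that count.

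Genes of cholesterol export and storage split. Of 16 listed, 10 were higher and 6 lower (median 0.49). Abca1, the transporter that loads cholesterol onto apolipoproteins, had 163, 139.6, 206, 162 and 137 CPM in Ndrg1 libraries 1 to 5, against 19.4 (lowest), 21.8 (median) and 22.5 CPM (highest) in the control libraries. This was a log2 change of 2.92 ± 0.12 (SE, adjusted p = 8.04e-16). Apoe, a lipid-carrying apolipoprotein, had 5286, 5636, 2896, 5847 and 5594 CPM in Ndrg1 libraries 1 to 5, against 985 (lowest), 1098 (median) and 1228 CPM (highest) in the control libraries. Ndrg1 library 3 was lower than the other 4 Ndrg1 libraries for Apoe, and still above every control library. The log2 change was 2.20 ± 0.13 (SE, adjusted p = 1.12e-12). Apod, an apolipoprotein of nerve, was higher by 1.64 ± 0.11 (SE, adjusted p = 4.2e-12), Apoc1 by 4.29, the oxysterol-making hydroxylase Ch25h by 1.84 and the esterifying enzyme Soat1 by 1.20. Lower members included the lysosomal cholesterol transporters Npc1 (-0.93 ± 0.14, SE, adjusted p = 3.31e-06) and Npc2 (-0.44) and the exporter Abcg1 (-0.44).

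Genes that build the other lipids of myelin were lower as well. In the list of fatty acid synthesis and desaturation, 16 of 19 fell and 1 rose, with a median of -1.48. Fasn, the fatty acid synthase, had 193, 150.5, 102, 166 and 178 CPM in Ndrg1 libraries 1 to 5, against 546 (lowest), 806 (median) and 852 CPM (highest) in the control libraries. The change was -2.22 ± 0.26 (SE, adjusted p = 1.94e-07) on the log2 scale. Elovl6, an elongase, changed by -2.28 ± 0.15 (SE, adjusted p = 4.22e-12), Acly, which supplies cytosolic acetyl-CoA, by -1.98, and the desaturase Scd2 by -1.92 ± 0.16 (SE, adjusted p = 1.77e-10). Elovl5 (0.46) was the member that rose. In the list of myelin sphingolipids and galactolipids, 12 of 13 fell, with a median of -1.07. Ugt8a, which makes galactosylceramide, had 711 ± 121 CPM in Ndrg1 libraries (SD, n = 5) and 3028 ± 257 CPM in control libraries (SD, n = 6). Its log2 change was -2.09 ± 0.12 (SE, adjusted p = 6.5e-13). The fatty acid hydroxylase Fa2h changed by -2.15 and the ceramide synthase Cers2 by -1.67. Ugcg, which makes glucosylceramide instead, rose by 0.57.

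**Figure D2:**
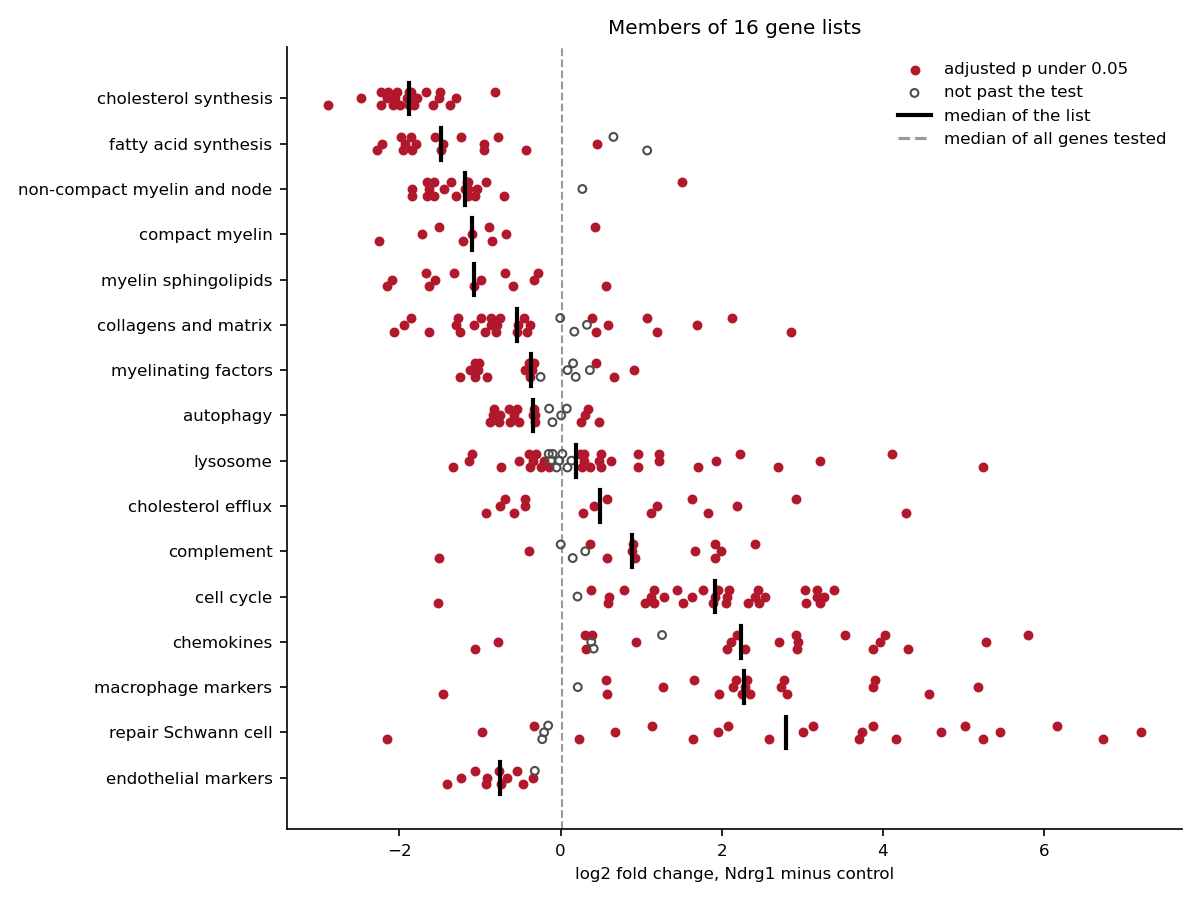
Log2 fold change (x axis, Ndrg1 minus control) of each tested member of 16 gene lists (rows); filled red points passed the test and open points did not, black bars are list medians and the dashed line is the median of all genes tested (0.02). All 24 cholesterol synthesis genes lie below 0, and 31 of 33 cell cycle genes passed the test above 0.

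Myelin protein genes were lower. In the list of compact myelin, 8 of 9 fell and 1 rose, with a median of -1.10. Pmp22, a tetraspan myelin protein, had 15263, 14883, 16261, 14574 and 13516 CPM in Ndrg1 libraries 1 to 5, against 37513 (lowest), 42822 (median) and 45362 CPM (highest) in the control libraries, a log2 change of -1.51 ± 0.10 (SE, adjusted p = 2.74e-12). Mbp, the protein of the cytoplasmic face, had 20676, 19514, 12258, 17287 and 13437 CPM in Ndrg1 libraries 1 to 5, against 34306 (lowest), 38937 (median) and 42719 CPM (highest) in the control libraries. Its log2 change was -1.21 ± 0.13 (SE, adjusted p = 1.11e-08). Cldn11, a tight junction claudin, was the member that rose, by 0.42 ± 0.16 (SE, adjusted p = 0.0296), at 12.3 to 15.8 CPM in Ndrg1 libraries and 8.35 to 13.1 CPM in control libraries, where the groups overlap.

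Of 21 tested genes for non-compact myelin, the paranode and the node, 19 fell and 1 rose (median -1.19). Prx, the scaffold of the outer Schwann cell membrane, had 3613, 3333, 1926, 3205 and 2782 CPM in Ndrg1 libraries 1 to 5, against 8554 (lowest), 8749.5 (median) and 9174 CPM (highest) in the control libraries. This was a log2 change of -1.57 ± 0.13 (SE, adjusted p = 2.42e-10). Kcna1, a juxtaparanodal potassium channel, changed by -1.85, the dystroglycan gene Dag1 by -1.84, the adhesion molecule Mag by -1.35, and Nfasc, which encodes paranodal and nodal neurofascins, by -1.65. Gjb1, the connexin of myelin channels, was lower, with a log2 change of -1.04 ± 0.12 (SE, adjusted p = 8.08e-08). Dlg2, the member that rose (1.51), stayed at or under 1.38 CPM in every library of both groups.

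The factors that set the myelinating state were lower for the most part. Of 20 listed, 12 fell and 3 rose, with a median of -0.36. Egr2 (Krox20), the transcription factor of the myelinating state, had 108, 100.1, 89.7, 107 and 87.7 CPM in Ndrg1 libraries 1 to 5, against 177 (lowest), 199.9 (median) and 235 CPM (highest) in the control libraries. All 5 Ndrg1 libraries were below all control libraries, and the log2 change was -1.06 ± 0.10 (SE, adjusted p = 4.89e-09). Sox10, the lineage factor, changed by -1.25 ± 0.19 (SE, adjusted p = 4.89e-06), and Ndrg1 library 3 was the lowest, at 142 CPM. The ligand Dhh (-1.03), the adhesion receptor Adgrg6 (-1.01), the neuregulin receptor Erbb3 (-0.44) and the protease Bace1 (-1.13) were also lower. Members higher in Ndrg1 nerve were Nrg1 (0.92), a ligand that injured Schwann cells can make themselves, Nfatc4 (0.66) and Zeb2 (0.44). Pou3f1 (Oct6), at 0.36, did not pass the test. In the list of 15 immature and non-myelinating Schwann cell genes, 7 rose and 3 fell (median -0.16), and the sign of this median was not stable. It was 0.11 without Ndrg1 library 3 (16 genes tested, 7 higher and 5 lower), 0.20 without library 2, 0.19 without library 4 and 0.14 with no low-count filter. Gfap, an intermediate filament of non-myelinating Schwann cells, had 129, 119, 166, 61.4 and 101 CPM in Ndrg1 libraries 1 to 5, against 7.50 (lowest), 20.7 (median) and 24.6 CPM (highest) in the control libraries, a log2 change of 2.66 ± 0.28 (SE, adjusted p = 9.21e-08). Sox2, which holds Schwann cells immature, was 26.9 ± 7.68 CPM in Ndrg1 libraries (SD, n = 5) and 7.97 ± 1.53 CPM in control libraries (SD, n = 6). Its log2 change was 1.75 ± 0.16 (SE, adjusted p = 1.73e-09), and Ndrg1 library 3 was the highest. Id2, an inhibitor of differentiation, changed by 2.26 and Ngfr, the low-affinity neurotrophin receptor, by 0.56, while Cdh2 (-1.02) and Ncam1 (-0.59) were lower.

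Most repair Schwann cell genes that could be tested rose. Of 26 tested members of the repair list, 20 were higher and 3 lower, and 18 were higher by at least 1 log2 unit; without Ndrg1 library 3, 27 were tested, 20 higher and 4 lower. The median was 2.80. The summed level of the list went the other way, at 1360 to 1620 CPM in Ndrg1 libraries and 1980 to 2210 CPM in control libraries. Gdnf, Olig1 and Ereg, at or near 0 in control nerve, could pass the low-count filter only through groups where they were higher. Such members add to the count of higher genes and to the median. Gdnf, a neurotrophic factor for motor neurons, had 4.60, 3.87, 7.34, 5.27 and 6.88 CPM in Ndrg1 libraries 1 to 5, against 0 (lowest), 0.0665 (median) and 0.167 CPM (highest) in the control libraries. It was near 0 in control nerve and at 3.87 CPM or more in each Ndrg1 library, with a log2 change of 6.17 ± 0.42 (SE, adjusted p = 9.39e-12). Shh, the hedgehog ligand that appears in injured nerve, had 14.4, 10.4, 15.6, 16.9 and 17.3 CPM in Ndrg1 libraries 1 to 5, against 0.248 (lowest), 0.419 (median) and 0.793 CPM (highest) in the control libraries, a log2 change of 5.03 ± 0.35 (SE, adjusted p = 5.84e-11). Olig1, a transcription factor of repair cells, was listed at 0 in all 6 control libraries and at 0.291 to 1.51 CPM in the Ndrg1 libraries. Against a floor of 3 counts over the control group (0.0217 CPM) that is at least 36.1-fold higher, and for the growth factor Ereg, also at 0 in every control library, at least 26.2-fold higher; with both at their bounds the list's median was 2.80. Clcf1, a cytokine of the gp130 family, had 40.1 ± 5.86 CPM in Ndrg1 libraries (SD, n = 5) and 2.70 ± 0.815 CPM in control libraries (SD, n = 6). Its log2 change was 3.88 ± 0.18 (SE, adjusted p = 1.28e-14). The ErbB ligand Btc changed by 4.72, the fibroblast growth factor Fgf5 by 5.46, the neurotrophic factor Artn by 3.75, and the transcription factor Runx2 by 3.13. Jun, the AP-1 factor that directs the repair state in mouse nerve, had 112, 119, 84.2, 111 and 124 CPM in Ndrg1 libraries 1 to 5, against 42.9 (lowest), 49.9 (median) and 55.3 CPM (highest) in the control libraries. The change was 1.14 ± 0.09 (SE, adjusted p = 1.03e-10) on the log2 scale. Members that fell were the ErbB ligand Tgfa (-2.16 ± 0.18, SE, adjusted p = 8.39e-10), the chaperone Cryab (-0.97) and Lif (-0.33). Bdnf and Ntf3 were below the low-count filter, and Areg and Sprr1a were not measured. Immediate early genes of the AP-1 family were higher: Fos by 1.98, Junb by 1.47, Fosl2 by 1.39 and Fosl1 by 5.75, the last at 1.25 to 4.06 CPM in Ndrg1 libraries and 0 to 0.0979 CPM in control libraries. Heat shock genes Hspa1a (-1.52) and Hspa1b (-1.24), near-identical copies whose reads cannot be told apart with certainty, were lower. In that list of 17 genes, 9 were higher and 4 lower (median 0.44).

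Cell division genes rose together. Of 33 cell cycle genes, 31 were higher and 1 lower, with a median of 1.92, and the same counts were found without Ndrg1 library 3. Promoters of a pair of members with the CCAAT letters are shown because they belong to this group (RefSeq, GRCm38.p6; Cdk1 chr10:69352863-69353162, minus strand; Ccnb1 chr13:100786437-100786736, minus strand); capitals mark CCAAT in either orientation.
Cdk1: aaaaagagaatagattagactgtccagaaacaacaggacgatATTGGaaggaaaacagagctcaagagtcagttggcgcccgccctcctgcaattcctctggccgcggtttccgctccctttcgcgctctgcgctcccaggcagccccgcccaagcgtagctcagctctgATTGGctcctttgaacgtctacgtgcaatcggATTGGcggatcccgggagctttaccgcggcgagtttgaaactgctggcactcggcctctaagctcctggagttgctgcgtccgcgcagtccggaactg
Ccnb1: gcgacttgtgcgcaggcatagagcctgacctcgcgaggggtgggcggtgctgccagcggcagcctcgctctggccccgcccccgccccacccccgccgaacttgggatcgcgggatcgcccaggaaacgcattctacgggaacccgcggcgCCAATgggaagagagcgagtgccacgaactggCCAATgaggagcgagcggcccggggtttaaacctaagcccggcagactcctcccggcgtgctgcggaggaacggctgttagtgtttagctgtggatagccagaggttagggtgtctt
Of 27 members with a promoter in the table, 23 (85.2%) held CCAAT, against 41.1% of all genes. Cdk1, the kinase that starts mitosis, had 17.1, 23.9, 28.4, 18.9 and 21.9 CPM in Ndrg1 libraries 1 to 5, against 1.54 (lowest), 2.13 (median) and 2.60 CPM (highest) in the control libraries. On the log2 scale the change was 3.40 ± 0.16 (SE, adjusted p = 8.9e-15). The cyclin Ccnb1 changed by 3.05 ± 0.16 (SE, adjusted p = 7.85e-14), the proliferation marker Mki67 by 2.53, the ribonucleotide reductase subunit Rrm2 by 3.22 and the survivin gene Birc5 by 3.18. Ccnd1, the D cyclin, had 505, 522, 519, 511 and 593 CPM in Ndrg1 libraries 1 to 5, against 107 (lowest), 126 (median) and 158 CPM (highest) in the control libraries. Its log2 change was 2.07 ± 0.09 (SE, adjusted p = 5.16e-15). The single member that fell was Cdkn1a, the p21 inhibitor of cyclin-dependent kinases, with a log2 change of -1.52 ± 0.13 (SE, adjusted p = 3.05e-10); Cdkn2a, another inhibitor, was higher by 1.96. Myc, which represses NDRG1 in human cells, was higher by 1.79 ± 0.12 (SE, adjusted p = 4.54e-12).

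**Figure D3:**
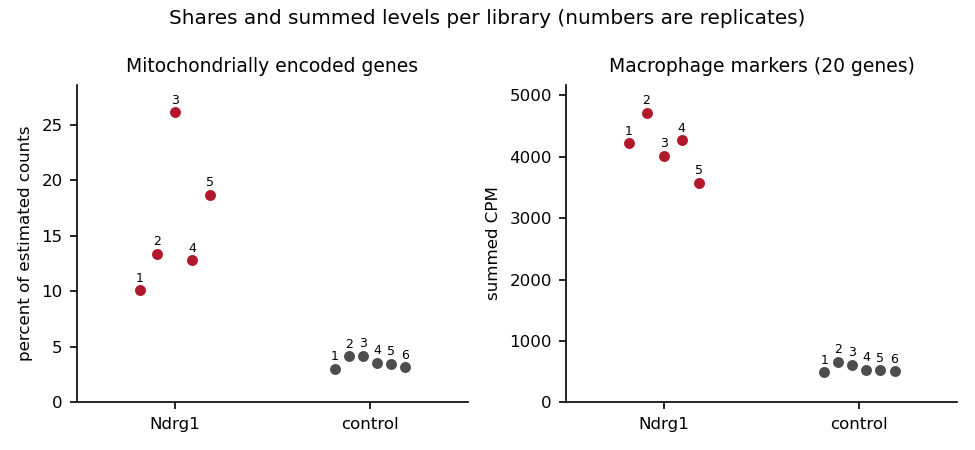
Share of estimated counts in mitochondrially encoded genes (percent, y axis from 0) and the summed level of 20 macrophage markers (CPM, y axis from 0) in each library, Ndrg1 in red on the left and control in grey on the right, with the replicate number above each point. Ndrg1 library 3 has the highest mitochondrial share, at 26.1%, and the summed macrophage level is 3570 to 4720 CPM in the Ndrg1 libraries, against 493 to 665 CPM in the control libraries.

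Macrophage markers were higher in Ndrg1 nerve. Of 20, 18 rose and 1 fell (median 2.27), their summed level was 3570 to 4720 CPM in Ndrg1 libraries and 493 to 665 CPM in control libraries, and no marker was at 0 in any of the 11 libraries. Adgre1 (F4/80) had 84.00, 80.2, 89.9, 87.9 and 79.4 CPM in Ndrg1 libraries 1 to 5, against 14.4 (lowest), 16.9 (median) and 20.4 CPM (highest) in the control libraries. The change was 2.29 ± 0.08 (SE, adjusted p = 4.02e-17) on the log2 scale. Mpeg1, a macrophage pore protein, had 452 ± 53.4 CPM in Ndrg1 libraries (SD, n = 5) and 18.9 ± 4.98 CPM in control libraries (SD, n = 6). It changed by 4.58 ± 0.15 (SE, adjusted p = 9.43e-18). Ms4a7, a membrane protein of macrophages, changed by 5.18 ± 0.15 (SE, adjusted p = 1.78e-18). Cd163, a scavenger receptor of resident macrophages, was lower, with a log2 change of -1.46 ± 0.20 (SE, adjusted p = 1.11e-06), and Mgl2, a lectin of macrophages and dendritic cells that was not on the list, had 4.97, 6.77, 4.65, 6.93 and 6.24 CPM in Ndrg1 libraries 1 to 5, against 33.9 (lowest), 35.2 (median) and 41.5 CPM (highest) in the control libraries. The control group was higher throughout for Mgl2, with a change of -2.60 ± 0.14 (SE, adjusted p = 9.25e-14). Mrc1 (0.21) did not pass the test. The 10 genes with the smallest p on the higher side included Ctss (4.12 ± 0.11, SE, adjusted p = 7.4e-19), Gpnmb (5.45 ± 0.16, SE, adjusted p = 1.78e-18), Timp1 (5.34 ± 0.16, SE, adjusted p = 4.27e-18), Lgmn (2.23 ± 0.07, SE, adjusted p = 4.38e-18), Cd84 (3.90 ± 0.12, SE, adjusted p = 6.43e-18) and Arl4c (3.82 ± 0.14, SE, adjusted p = 1.15e-16). The 18 raised macrophage markers, Cd68 and Lyz2 among them, moved with these genes, and their part in this result was not tested. T, NK and B lymphocyte markers had 6 of 9 tested higher and none lower, at a summed level of 41.7 to 54 CPM in Ndrg1 libraries and 27 to 34.4 CPM in control libraries: Cd4, also expressed by myeloid cells, changed by 5.09 and Trac, the T cell receptor alpha constant gene, by 1.63. Endothelial markers fell in 11 of 12 (median -0.75; summed level 287 to 335 CPM in Ndrg1 libraries and 535 to 620 CPM in control libraries), with Kdr at -1.24 ± 0.11 (SE, adjusted p = 7.16e-10) and Vwf at -1.41. No skeletal muscle (14) or erythrocyte (5) marker passed the test, and 1 of 9 adipocyte markers was lower. The erythroid gene Alas2 (-1.19) did pass, lower, with the 2 groups alone, with a sex covariate, with DESeq2 and without Ndrg1 library 1, control library 5 or control library 6; the globin genes Hbb-bs and Hbb-bt passed, lower, with the 2 groups alone, and Hba-a2 without Ndrg1 library 1. The Schwann cell lineage list had 2 markers higher and 6 lower of 10, at a summed level of 17200 to 21100 CPM in Ndrg1 libraries and 68100 to 91500 CPM in control libraries. Mast cell markers counted 4 higher and 0 lower of 8. In 1 of them the groups did not overlap, which held for 20.6% of all genes on the higher side. The tryptase Tpsb2 (1.79) overlapped, at 15.5 to 56.6 CPM in Ndrg1 libraries and 3.50 to 15.8 CPM in control libraries. Of 8 neutrophil markers only 2 passed the low-count filter, Csf3r and Mpo, both higher. Mpo overlapped, at 0.197 to 1.44 CPM in Ndrg1 libraries and 0.0417 to 0.245 CPM in control libraries. S100a8 and S100a9 were below the filter, so these counts do not describe the neutrophil list. Fibroblast markers counted 6 higher and 2 lower of 13, perineurial markers 2 higher and 5 lower of 11, pericyte and smooth muscle markers 0 higher and 3 lower of 10, neuron and axon markers 1 higher and 2 lower of 9, and melanocyte markers 0 higher and 1 lower of 2. The neuronal marker that was higher, Map2 (0.54), did not pass the test without Ndrg1 library 3 (0.24), without control library 1 (0.46) or without control library 5 (0.50).

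The lysosome list held 20 members higher and 12 lower of 40, with a median of 0.19, so its genes did not move one way. Ctss, a cathepsin of antigen-presenting cells, had 297, 359, 279, 296 and 302 CPM in Ndrg1 libraries 1 to 5, against 13.9 (lowest), 17.96 (median) and 21.3 CPM (highest) in the control libraries. Ctsd (1.93), Ctsb (1.70), Cd63 (1.23) and Lgals3 (3.22), a galectin of damaged lysosomes, were higher, and Atp6v0d2, a proton pump subunit of osteoclasts and macrophages, had 22.8, 30.5, 27.8, 24.3 and 26.2 CPM in Ndrg1 libraries 1 to 5, against 0.334 (lowest), 0.631 (median) and 1.16 CPM (highest) in the control libraries, a log2 change of 5.24 ± 0.24 (SE, adjusted p = 1.81e-14). Lower members included the sphingomyelinase Smpd1 (-1.34 ± 0.10, SE, adjusted p = 4.68e-11), the arylsulfatase Arsa (-1.14), the glucosidase Gaa (-1.10), the structural protein Lamp1 (-0.74) and Galc (-0.34), which breaks down galactosylceramide. Of the MiT/TFE factors that govern lysosome genes, Mitf (0.05), Tfeb (-0.24) and Tfe3 (-0.14) did not pass the test, Tfec rose by 3.64 ± 0.35 (SE, adjusted p = 2.86e-09) and the folliculin gene Flcn by 0.46. Gpnmb, a transmembrane glycoprotein that MITF switches on in pigment cells, had 380.3, 441, 314, 408 and 404 CPM in Ndrg1 libraries 1 to 5, against 6.84 (lowest), 9.12 (median) and 10.6 CPM (highest) in the control libraries. The MiT/TFE and folliculin list counted 4 higher and 0 lower of 10 and the list of pigment cell MITF targets 3 higher and 1 lower of 6. Pmel, a pigment granule protein, was lower (-1.91 ± 0.27, SE, adjusted p = 1.53e-06). Autophagy genes were lower for the most part, 14 of 22 with 4 higher (median -0.34), the receptors Nbr1 (-0.83), Sqstm1 (-0.63) and Calcoco1 (-0.83) among them, whereas Atg5 (0.48) was higher. Macrophage markers moved with the lysosomal genes that were higher, and the part they played was not tested.

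Chemokine genes were higher: 19 of 24 rose and 2 fell, with a median of 2.24. Cxcl14, a chemokine, had 133, 141, 108, 155 and 157 CPM in Ndrg1 libraries 1 to 5, against 2.76 (lowest), 3.18 (median) and 4.75 CPM (highest) in the control libraries. On the log2 scale the change was 5.28 ± 0.21 (SE, adjusted p = 7.78e-15). Ccl2 is a monocyte attractant that Schwann cells can make. It had 50.9 ± 6.65 CPM in Ndrg1 libraries (SD, n = 5) and 6.68 ± 2.08 CPM in control libraries (SD, n = 6), a change of 2.93 ± 0.18 (SE, adjusted p = 2.55e-12). Cxcl5 (5.80), Ccl5 (4.32), Ccl3 (4.03) and Tnf (2.06) were also higher, whereas Il34 (-1.06), a ligand of the macrophage growth factor receptor, and Cxcl12 (-0.77) were lower and Il1b (1.26) did not pass the test. Of 15 complement genes, 10 rose and 2 fell (median 0.89). The 3 chains of C1q, made by macrophages, moved together: C1qa changed by 2.00 ± 0.12 (SE, adjusted p = 5.15e-13), C1qb by 1.92 and C1qc by 1.92, each lowest in Ndrg1 library 3. The summed macrophage markers moved with the chemokine and complement genes, and their part was not tested. C3, the central component, changed by 0.90 and the regulator Cd55 by -1.51. MHC class II genes did not move together, with 2 of 8 higher and 3 lower: H2-Aa (-0.17) and H2-Ab1 (-0.16) did not pass the test, and the peptide loading genes H2-DMa (-2.04 ± 0.13, SE, adjusted p = 4.59e-12) and H2-DMb1 (-1.84) and the invariant chain Cd74 (-0.78) were lower. Interferon response genes had 8 of 20 higher and 6 lower.

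Matrix genes were lower more often than higher. Of 31 collagen and matrix genes, 20 fell and 8 rose (median -0.54). Col4a1, a basement membrane collagen, had 552, 394, 323, 514 and 568 CPM in Ndrg1 libraries 1 to 5, against 1489.7 (lowest), 2091 (median) and 2382 CPM (highest) in the control libraries. This was a log2 change of -2.07 ± 0.23 (SE, adjusted p = 1.02e-07). The laminin genes Lamc1 (-1.29) and Lama2 (-1.25) were lower. Postn, a matricellular protein, was higher by 2.86 ± 0.23 (SE, adjusted p = 1.42e-09), Thbs2 by 2.13 and Col8a1 by 1.70. Of 22 matrix proteases and inhibitors, 10 rose and 6 fell. Timp1, a protease inhibitor, had 55.1, 70.5, 72.8, 84.7 and 79.4 CPM in Ndrg1 libraries 1 to 5, against 1.31 (lowest), 1.77 (median) and 2.25 CPM (highest) in the control libraries. Mmp12, the elastase of macrophages, had 20.3, 24.8, 19.99, 24.97 and 15.4 CPM in Ndrg1 libraries 1 to 5, against 0.0364 (lowest), 0.0665 (median) and 0.167 CPM (highest) in the control libraries. Its log2 change was 7.84 ± 0.40 (SE, adjusted p = 2.32e-13). Promoters of Mmp12 (chr9:7347124-7347423, plus strand) and Gpnmb (chr6:49036268-49036567, plus strand) are shown (RefSeq, GRCm38.p6). Both rank among the strongly raised genes and hold the AP-1 letters TGANTCA, a pattern that is its own reverse complement. Capitals mark that motif.
Mmp12: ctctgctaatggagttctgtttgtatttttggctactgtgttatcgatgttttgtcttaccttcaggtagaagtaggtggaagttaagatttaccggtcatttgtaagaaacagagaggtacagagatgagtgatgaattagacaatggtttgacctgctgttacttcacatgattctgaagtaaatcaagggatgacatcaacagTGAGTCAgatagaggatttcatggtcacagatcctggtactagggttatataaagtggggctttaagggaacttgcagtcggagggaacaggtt
Gpnmb: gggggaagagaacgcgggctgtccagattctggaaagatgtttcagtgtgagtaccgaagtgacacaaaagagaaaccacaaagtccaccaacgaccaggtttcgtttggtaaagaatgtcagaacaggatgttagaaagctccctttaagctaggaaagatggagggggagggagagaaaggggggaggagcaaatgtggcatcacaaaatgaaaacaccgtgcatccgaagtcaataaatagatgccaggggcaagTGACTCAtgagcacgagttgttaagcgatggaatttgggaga
The AP-1 letters were in 8.97% of all promoters, in 4 of 19 (21.1%) promoters of the repair list, in 3 of 13 (23.1%) of the protease list and in 4 of 16 (25%) of the macrophage list. They were in 3 of 29 (10.3%) promoters of the lysosome list and in 0 of 27 of the cell cycle list. These are matches of letters, not sites.

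Other groups gave smaller or divided changes. In the list of 27 integrated stress and unfolded protein response genes, 7 rose and 7 fell, with Gdf15 (3.96) and Ddit3 (0.57) higher. The amino acid transporter Slc7a5 had 43.1 ± 9.62 CPM in Ndrg1 libraries (SD, n = 5) and 135 ± 20.7 CPM in control libraries (SD, n = 6). It changed by -1.64 ± 0.18 (SE, adjusted p = 8.58e-08). Glycolysis genes had 5 of 22 higher and 7 lower. Aldoc, an aldolase of glia, had 5.25, 3.91, 4.00, 4.57 and 4.37 CPM in Ndrg1 libraries 1 to 5, against 28.97 (lowest), 31.1 (median) and 35.03 CPM (highest) in the control libraries. It ranked second by p among the genes that fell, with a change of -2.82 ± 0.11 (SE, adjusted p = 4.54e-16). Spon2, a matrix protein, changed by -2.15 ± 0.11 (SE, adjusted p = 2.58e-14), Fez1, an axonal transport adaptor, by -1.41 ± 0.07 (SE, adjusted p = 6.84e-14), Epdr1 by -1.97 ± 0.11 (SE, adjusted p = 1.23e-13), and Lctl by -2.14 ± 0.11 (SE, adjusted p = 9.93e-14). Of 17 Nrf2 and glutathione genes, 4 rose and 8 fell. Of 28 other Charcot-Marie-Tooth disease genes, 19 fell and 2 rose (median -0.58), and that list shares Pmp22, Prx, Egr2, Gjb1 and others with the lists above. Sbf2, a regulator of phosphoinositide phosphatases, changed by -1.49 ± 0.11 (SE, adjusted p = 3.57e-11) and Fig4, a phosphoinositide phosphatase of endosomes, by -0.59.

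Against the libraries labelled Mitf in the same table (6), the direct contrast called 9697 of 15910 genes (60.9%), 4884 higher (30.7%) and 4813 lower (30.3%). Ndrg1 itself was lower in the Ndrg1 group, with a log2 change of -3.29 ± 0.09 (SE, adjusted p = 5.67e-19). The same fit gave 5.54 ± 0.16 (SE, adjusted p = 1.3e-18) for Gpnmb, 5.61 ± 0.16 (SE, adjusted p = 2.06e-18) for Timp1, -2.93 ± 0.11 (SE, adjusted p = 2.07e-16) for Aldoc, -2.05 ± 0.11 (SE, adjusted p = 1.33e-13) for Insig1 and -1.79 ± 0.09 (SE, adjusted p = 7.24e-14) for Fdft1. Both comparisons share the 5 Ndrg1 libraries.

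The same genes were set beside nerve injury, in a table with no library in common. There, nerves 3 days after injury were compared with uninjured nerves, both labelled Mitf (4 libraries each), and 3365 of 15245 genes passed (22.1%), 11.7% higher and 10.4% lower. The count depended on single libraries: 1816 genes passed without uninjured library 2, 2080 without uninjured library 1 and 2080 without uninjured library 3. Of the 1918 genes higher by at least 1 log2 unit in Ndrg1 nerve, 1626 were measured after injury; 705 of them (43.4%) were higher there and 2 (0.123%) lower, against 11.9% and 10.6% of all genes measured in both tables. Of the 1246 genes lower, 1186 were measured; 493 (41.6%) were lower after injury and 2 (0.169%) higher. Differences between the tables themselves were not tested. The 4 exceptions are named for that reason, after their values were seen: Cpne7 (1.71 in Ndrg1 nerve and -1.38 after injury), the clone RP23-411B11.2 (1.77 and -0.83), Gjb1 (-1.04 and 0.83) and Sgsm1 (-1.01 and 1.53).

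By list, 20 of 24 cholesterol synthesis genes were lower after injury with a median of -0.97 and none higher, and 26 of 32 cell cycle genes were higher with a median of 2.49. Repair genes had 13 of 23 higher and 2 lower. Macrophage markers had 7 of 20 higher and endothelial markers 3 of 12 higher and none lower, with medians of 1.22 and 0.28 there and 2.27 and -0.75 in Ndrg1 nerve. The log2 value of Gpnmb was 5.45 in Ndrg1 nerve and 0.72 ± 0.27 (SE, adjusted p = 0.0895) after injury, where it did not pass the test. For Gdnf the values were 6.17 in Ndrg1 nerve and 7.30 ± 0.90 (SE, adjusted p = 0.00231) after injury. A table of Fig4 -/- against Fig4 +/+ nerve at P12 (3 libraries each), in which 435 of 14338 genes passed (3.03%; 1.87% higher and 1.16% lower), gave Gpnmb 5.27, and there 15 of 24 cholesterol synthesis genes were lower and 12 of 24 repair genes higher. The count of 435 ranged from 146 to 709 when single libraries were left out, with 146 without Fig4 -/- library 2.

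**Figure D4:**
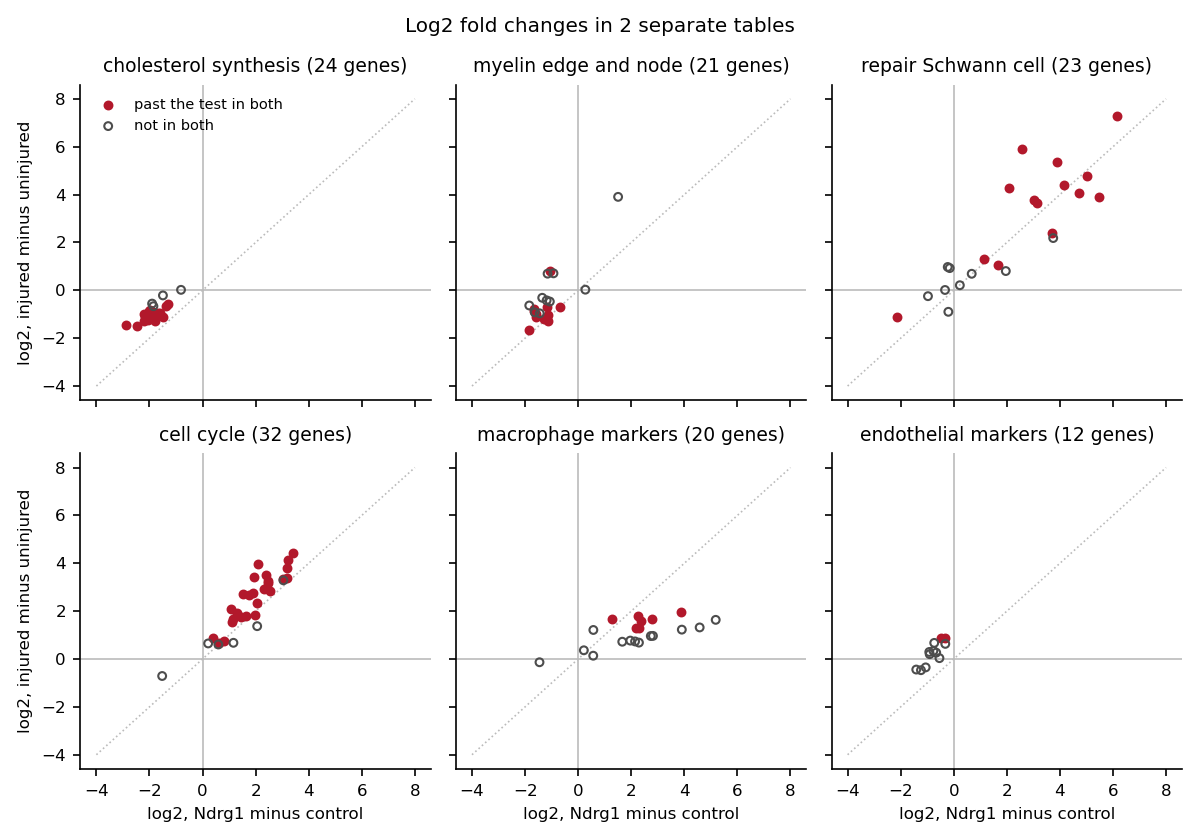
Log2 fold change in Ndrg1 nerve (x axis, Ndrg1 minus control) against that after injury (y axis, injured minus uninjured, a separate table) for the members of 6 lists measured in both; filled red points passed the test in both tables, and the dotted line marks equal change. Of the cholesterol synthesis genes 20 of 24 were lower after injury, and the 12 endothelial markers lie left of 0 on the x axis with none lower past the test after injury.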

How the data were processed

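Total RNA of frozen sciatic nerve was made into stranded mRNA libraries, per the labels' protocols. The authors deposited 1 table of estimated counts by gene symbol for each experiment; the submitters' processing notes name kallisto and mm10. Version, gene models and the summing of transcripts were not given in the sources used here. The table with Ndrg1 holds 18003 genes and its values were rounded before testing. After filterByExpr at a minimum count of 10 and TMM scaling, edgeR 4.0.16 (R 4.3.3, limma 3.58.1) ran its robust quasi-likelihood test on all 22 libraries in 1 fit, two-sided and Benjamini-Hochberg adjusted over 15910 genes with a threshold of 0.05. Log2 fold changes give Ndrg1 minus control, and likewise for other pairs; the SE is the absolute change over the square root of F. CPM uses TMM-scaled totals. The injury table and the Fig4 table were fitted separately in the same way.

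Members and the 28 gene lists and 14 marker lists (694 symbols, of which 20 were not in the table and 20 fell below the filter) were chosen with earlier results of these data known. Lists were described by counts and medians, with no list test. Genes named were Ndrg1, the 10 with the smallest p and the 5 with the highest level in each direction among those changed by at least 1 log2 unit (mean of at least 1 CPM for the 10; predicted, clone and pseudogene names, Xist and Y-linked genes left out), 4 per list by p and other members needed to describe a list; against Mitf, 8 per direction. No pairing of the samples by replicate number was seen. No 2 libraries of a group were the same (lowest chi-square per degree of freedom 9.607). The 5 tables of other experiments were not used. Some genes that the rule names are not reported here. The fit was run on simulated counts in which 200 genes were changed in the Ndrg1 libraries. It called 77% of the 2-fold and 85% of the 4-fold changes, and 10 unchanged genes. With so few changed genes, that run cannot show how the fit behaves where 60.5% of genes pass. Estimated counts limit how well near-identical genes are told apart. Alternatives were DESeq2 1.42.0, RLE scaling, no filter, the 2 groups alone, a replicate block, a sex covariate and leaving out each library. The sex covariate was the log2 summed level of the Y-linked genes Ddx3y, Uty, Kdm5d and Eif2s3y in each library, not a recorded sex. Alternatives added later left out mitochondrial genes, muscle-rich libraries of other groups, or Ndrg1 library 3 with mitochondrial genes.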

Additional observations from a re-analysis of the deposited data

Results flagged for a closer look

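Of 350 groups of libraries checked, 33 held a library far from the others of its group by Dixon's criterion at the 95% level, which chance gives in about 1 in 20 groups. The values are CPM, and no explanation is weighed.

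In Ndrg1 library 2, Ctss was highest at 359 against 279 to 302 and Thbs1 was highest at 98.4 against 88 to 88.8 CPM in the other Ndrg1 libraries.

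In control library 2, Mgl2 was highest at 41.5 against 33.9 to 36.1, Ndrg3 was highest at 97.8 against 87.1 to 91 and Cd9 was highest at 3570 against 2880 to 3110 CPM in the other control libraries. Likewise, Gabarapl1 was highest at 266 against 221 to 235 and Myh2 was highest at 3.13 against 0 to 1.09 CPM in the other control libraries.

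In Ndrg1 library 3, Sox4 was highest at 81.3 against 57.5 to 62, Sox2 was highest at 40.5 against 21.9 to 24.6 and Apoe was lowest at 2900 against 5290 to 5850 CPM in the other Ndrg1 libraries. Likewise, Met was highest at 46.6 against 23.2 to 29.8, Phgdh was lowest at 75.1 against 116 to 124 and Hk1 was lowest at 45 against 61.2 to 67.5 CPM in the other Ndrg1 libraries. Further, Gclm was highest at 42.1 against 31.6 to 33.1, C1qa was lowest at 195 against 307 to 330 and C1qb was lowest at 173 against 269 to 286 CPM in the other Ndrg1 libraries. There too, C1qc was lowest at 163 against 265 to 283 and Map2 was highest at 16.8 against 6.78 to 9.44 CPM in the other Ndrg1 libraries.

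In control library 6, Tnc was highest at 11.4 against 7.59 to 8.81 CPM in the other control libraries.

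In Ndrg1 library 5, Ccnd1 was highest at 593 against 505 to 522 and G6pdx was highest at 36.2 against 29.4 to 31 CPM in the other Ndrg1 libraries.

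In control library 1, Slc2a1 was highest at 163 against 116 to 131, Pnpla2 was highest at 105 against 69.9 to 81.7 and Fabp4 was highest at 70.7 against 17.8 to 30.3 CPM in the other control libraries. Likewise, Cidec was highest at 16.5 against 2.73 to 5, Adipoq was highest at 18.1 against 2.46 to 7.69 and Alas2 was highest at 7.76 against 2.26 to 4.21 CPM in the other control libraries. Further, Hba-a2 was highest at 218 against 53.2 to 89.5 CPM in the other control libraries.

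In Ndrg1 library 4, Myh2 was highest at 12.7 against 0 to 0.166, Myh1 was highest at 40.6 against 0 to 1.9 and Tnnt3 was highest at 116 against 2.04 to 25.3 CPM in the other Ndrg1 libraries. Likewise, Tnnc2 was highest at 68.9 against 0.197 to 13.6 CPM in the other Ndrg1 libraries.

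In control library 3, Nefl was highest at 25.4 against 13.9 to 17.8 CPM in the other control libraries.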

How the results depend on the processing

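With other settings of the test the Ndrg1 count stayed between 9139 genes (the 2 groups alone) and 9810 (no low-count filter); it was 9745 with DESeq2, 9613 with RLE scaling, 9383 with the replicate block and 9513 with a sex covariate, and it ran from 9239 to 9785 genes when single libraries were left out. Against Mitf the count ran from 9255 to 9786 without single libraries and was 9401 with the replicate block. Of the listed genes, 482 passed the test, and 469 to 486 without single libraries. Alternatives chosen after seeing the data gave 9658 genes with mitochondrial genes left out before scaling, where the median of all genes was 0.08 and 5418 genes were higher against 4240 lower, 9796 without the muscle-rich libraries of other groups, and 9788 without Ndrg1 library 3 and mitochondrial genes. Replicate numbers are shared between the groups, and no pairing by number was seen. Deviations of same-numbered libraries correlated between -0.0424 and 0.224, and no library correlated best with its own number. A pairing that left little trace in expression would not show in this check.

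The injury count ran from 1816 to 4058 genes without single libraries; it was 2768 with the replicate block. The Fig4 count ran from 146 to 709 without single libraries (159 without Fig4 +/+ library 1, 177 without Fig4 +/+ library 2, 275 without Fig4 -/- library 1, 146 without Fig4 -/- library 2, 709 without Fig4 -/- library 3), and was 1131 with no low-count filter, 977 with DESeq2 and 361 with the replicate block; the cause was not tested. Of 173 genes picked by p or level, among all genes or within a list, 162 kept their call and direction in all 20 alternatives. Picking by small p favours a kept call. Genes named only to describe a list, such as Hmgcs1, Fasn, Gdnf and Jun, were not in that check. The muscle genes Myh1 and Myh2, not past the test, turned to -3.43 and -3.40 without Ndrg1 library 4, which decides their direction, and reached 1.53 and 2.78 without control library 2. List medians moved by more than the spread between Ndrg1 libraries in 62 cases and by less in 758. Depth limits genes near 0 CPM, such as Gdnf in control nerve.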

Other observations

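Several gene families outside the lists were picked after their values were seen, so no test is given for the groups; over all genes, 30.8% were higher and 29.7% lower. Mitochondrially encoded genes summed to 65900 to 189000 CPM in Ndrg1 libraries and 23300 to 32700 CPM in control libraries, with a median log2 change of 1.96 over 15 genes, 14 of them higher past the test and 0 lower. mt-Co1, a subunit of cytochrome oxidase, had 25518, 34203, 74635, 32712 and 49427 CPM in Ndrg1 libraries 1 to 5, against 8144 (lowest), 10056 (median) and 12239 CPM (highest) in the control libraries, highest in Ndrg1 library 3. Cytosolic ribosomal protein genes summed to 28200 to 33400 CPM in Ndrg1 libraries and 13000 to 17900 CPM in control libraries, with 71 of 76 genes higher and 0 lower, and a median of 1.00, or 1.06 when mitochondrial genes were left out before scaling; pseudogene copies may share their reads. Nuclear complex I subunit genes were divided, with 15 of 36 higher, 3 lower and 18 not past the test (median 0.29), and mitochondrial ribosomal protein genes had 43 of 79 higher, 3 lower and 33 not past the test (median 0.31).

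Gamma protocadherin genes, a cluster of cell adhesion proteins whose variable exons share constant exons, summed to 81.8 to 136 CPM in Ndrg1 libraries and 195 to 280 CPM in control libraries, with a median of -2.40 over 22 genes, 20 of them lower and 1 higher. Pcdhga8 changed by -3.58 ± 0.55 (SE, adjusted p = 7e-06), and Pcdhgc5 by 1.87 ± 0.49 (SE, adjusted p = 0.00209) in the other direction. Reads of the shared exons cannot be assigned to 1 member with certainty. Of the 20 beta protocadherins, 10 were lower and 10 did not pass (median -0.79). After injury 1 of 22 gamma genes was higher and 1 lower (median -0.50).

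Some genes were near 0 in 1 group only. Il1rn, the interleukin-1 receptor antagonist, was at 8.78 to 12.9 CPM in Ndrg1 libraries and 0 to 0.0497 CPM in control libraries. Mcoln3, a lysosomal calcium channel, was at 4.32 to 8.16 CPM in Ndrg1 libraries and 0 to 0.0416 CPM in control libraries. Htr2b, a serotonin receptor, was at 4.96 to 7.87 CPM in Ndrg1 libraries and 0 to 0.0979 CPM in control libraries. The unnamed transcript AC092404.2 was at 0 CPM in every Ndrg1 library and at 30.9 to 88.4 CPM in the control libraries.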
